A study of Mus musculus with 18 samples.

Results

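Growth factor and receptor genes with known roles in vessel growth and tissue repair were followed in bone marrow-derived macrophages (BMDM) treated with inhibitors of choline metabolism. The 10 genes were the platelet-derived growth factor ligand genes *Pdgfa*, *Pdgfb* and *Pdgfc*, the vascular endothelial growth factor ligand genes *Vegfa* and *Vegfb*, the ligand genes *Igf1* and *Hbegf*, and the receptor genes *Flt1*, *Nrp1* and *Nrp2*. They were found by symbol among the 55385 Ensembl genes of the count table, of which 14979 had enough counts to be tested. All 10 passed that filter, which asked for 10 counts or more in 2 or more of the 18 libraries.

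The cells were grown from bone marrow of female C57BL/6J mice aged 12 weeks, in medium with L-929 culture supernatant, and were harvested on day 7. Vehicle (Veh, 0.1% DMSO), 250 µM hemicholinium-3 (HC3, a blocker of choline uptake) or 5 µM RSM-932a (RSM, an inhibitor of choline kinase) was given for 24 h. For a further 24 h the cells then received no cytokine (naïve, M[0]) or IL-4 at 20 ng/mL, which polarizes them (M[IL-4]). This gives 6 groups of 3 libraries each. The libraries came from 3 individual mice, although the labels do not say which library came from which mouse.

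Platelet-derived growth factors (PDGF) are dimers of A, B, C or D chains that act on the receptors PDGFRα and PDGFRβ of mesenchymal cells, and PDGF-B is known for the recruitment of pericytes to new vessels. VEGF-A drives endothelial growth through VEGFR2, the product of *Kdr*, while *Flt1* encodes VEGFR1, a high-affinity receptor for VEGF-A, VEGF-B and placental growth factor that also exists as a soluble form. Neuropilins bind both VEGF and class 3 semaphorins as co-receptors, IGF-1 from macrophages supports muscle and epithelial repair, and HB-EGF is shed from the cell surface to activate the EGF receptor.

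Libraries held 17457796 to 19522255 counts. Levels are CPM, the counts scaled to a common library size with TMM factors, and at this depth 3 counts in 1 library correspond to 0.153 to 0.176 CPM. All 8 macrophage markers examined were detected in every group, and their summed level was 20277 to 21364 CPM in Veh M[0], 8707 to 9799 in HC3 M[0] and 15750 to 17196 in RSM M[0]. In M[IL-4] it was 11801 to 12146 CPM with vehicle, 7469 to 8657 with HC3 and 10601 to 12982 with RSM. In M[0], 6 of these 8 markers were called lower with HC3 (*Mertk*, *Itgam*, *Lyz2*, *Adgre1*, *Cd14* and *Csf1r*) and 3 with RSM (*Fcgr1*, *Adgre1* and *Csf1r*). In M[IL-4], 2 were called lower with HC3 (*Itgam* and *Cd14*) and 0 with RSM. None was called higher with an inhibitor. The shares of all tested genes called were 12.0%, 11.6%, 10.3% and 11.0% in that order. Among fibroblast markers, *Lum* was at 0 counts in 5 of 6 groups, and the other 5 were tested. *Col3a1* was called higher with both inhibitors in both polarizations and *Col1a1* in M[0] only, while *Dcn* was called lower with RSM in both polarizations. The summed fibroblast list was 506.6 to 855.2 CPM in Veh M[0], 1199 to 1644 in HC3 M[0] and 997.8 to 1423 in RSM M[0], and 278.3 to 647.7, 550.4 to 1038 and 527.3 to 1045 in the M[IL-4] groups in the same order. Of 6 endothelial markers only *Kdr* and *Vwf* passed the count filter. These shifts ran alongside the inhibitor effects given below, and their part in those effects was not tested. In bulk RNA, fewer cells of a type and less RNA per cell cannot be told apart.

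*Vegfa* was higher and *Pdgfb* lower with both inhibitors, in each of 4 comparisons with vehicle. A gene is said to have risen or fallen where the false discovery rate (FDR, the Benjamini-Hochberg adjusted p of edgeR's quasi-likelihood test over all 14979 genes) was under 0.05, and to be called where the log2 fold change was also at least 1 or at most -1. With HC3 in M[0], 4 of 10 genes were called, against 12.0% of all tested genes, with *Vegfa* and *Hbegf* higher and *Pdgfb* and *Igf1* lower. With RSM in M[0], 5 of 10 were called, against a background of 11.6%, since *Flt1* was lower as well, at 4 to 10 counts per library against 18 to 19. In M[IL-4], 3 of 10 were called with HC3 (background 10.3%) and 3 of 10 with RSM (background 11.0%), and in both cases these were *Vegfa* higher and *Pdgfb* and *Flt1* lower. At an FDR under 0.05 without a fold limit, the counts were 8, 10, 9 and 9 of 10 in the same order, against 44.1%, 41.1%, 38.8% and 38.6% of all tested genes. The median size of the log2 fold change, with its sign ignored, was 0.78, 0.82, 0.59 and 0.76 among the 10 genes and 0.34, 0.32, 0.31 and 0.30 among all tested genes. Inhibitor and vehicle libraries did not overlap for 9 of 10 genes in each comparison, against 52.2%, 51.5%, 45.9% and 46.6% of all tested genes. The HC3 and RSM comparisons within a polarization share their vehicle libraries.

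**Figure D1:**
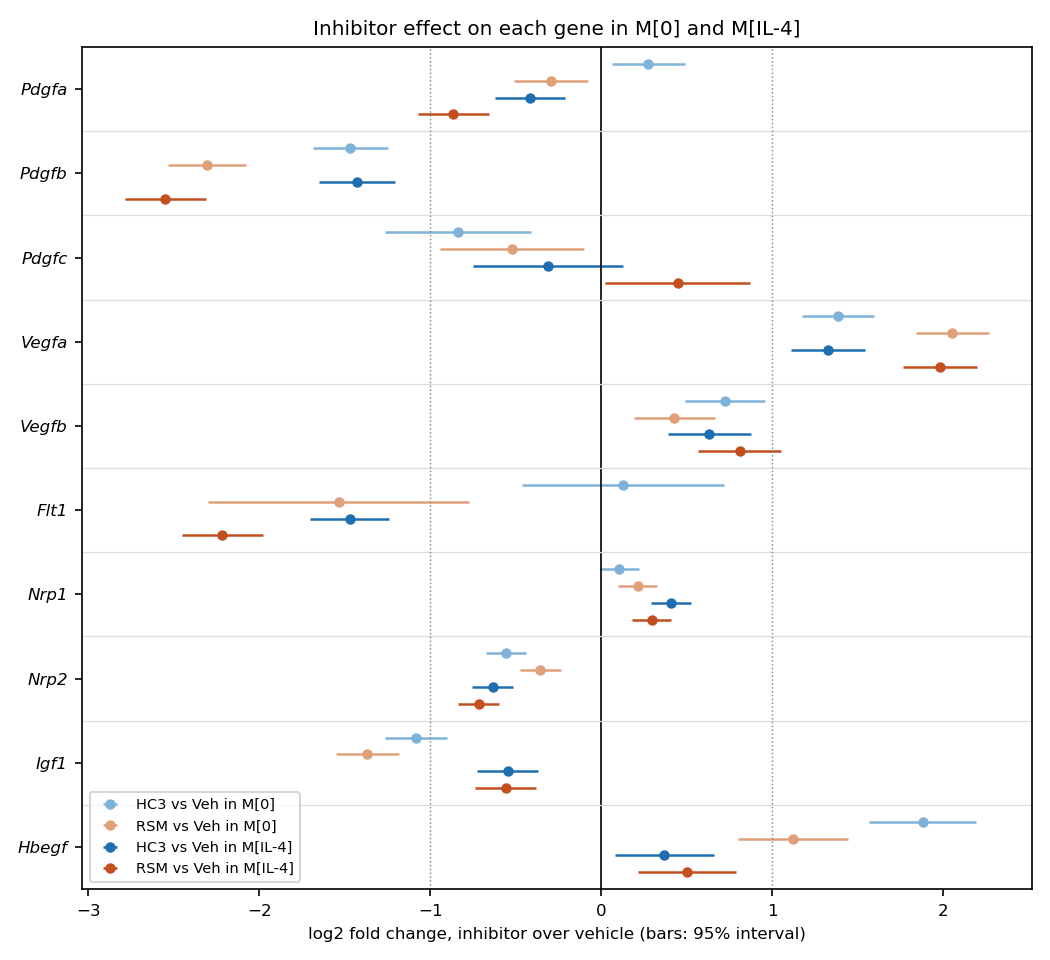
Log2 fold change of each gene in inhibitor over vehicle (x axis) with its 95% interval (bars), for both inhibitors in each polarization; dotted lines mark -1 and 1. All 4 estimates lie beyond 1 for Vegfa (1.33 to 2.05) and beyond -1 for Pdgfb (-2.55 to -1.43), while those of Nrp1 and Nrp2 lie inside the dotted lines.

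*Pdgfb*, which encodes the PDGF-B chain (chromosome 15, 79995874 to 80014977, minus strand, GRCm38), had the largest falls of the ligand genes. The Veh M[0] libraries were at 169, 200 and 208 CPM, the HC3 M[0] libraries at 63.5, 71.2 and 73.9, and the RSM M[0] libraries at 35.3, 37.4 and 43.8. In M[IL-4], vehicle libraries were at 157, 155 and 150 CPM, HC3 libraries at 61.8, 59.3 and 51.2, and RSM libraries at 28.2, 28.9 and 22.0. No library of any group overlapped with the next group in the order of levels, which ran Veh M[0], Veh M[IL-4], HC3 M[0], HC3 M[IL-4], RSM M[0] and RSM M[IL-4]. The mean was 2.77-fold lower with HC3 (FDR = 1.62e-09) and 4.95-fold lower with RSM (FDR = 7.23e-12) in M[0], and 2.69-fold (FDR = 4.11e-09) and 5.85-fold lower (FDR = 4.55e-12) in M[IL-4]. Among the genes called lower with RSM, *Pdgfb* stood at place 209 of 975 by fold change in M[0] and at place 145 of 899 in M[IL-4]. *Pdgfb* is among the genes that the study itself displays from these libraries, so this is a description of a gene already selected.

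*Pdgfa*, the gene of the PDGF-A chain (chromosome 5, 138976014 to 138997370, minus strand), went different ways with the inhibitors in naïve cells. In M[0] its level was 29.6, 36.0 and 38.7 CPM with vehicle, 40.1, 43.3 and 42.7 with HC3 and 28.4, 23.9 and 32.8 with RSM. HC3 libraries were all above vehicle, whereas RSM and vehicle libraries overlapped. Log2 fold changes were 0.28 ± 0.10 (SE, FDR = 0.0343) with HC3 and -0.29 ± 0.10 (FDR = 0.0294) with RSM. These small differences were not past the threshold without replicate 1 (FDR = 0.254) or 2 (FDR = 0.0905) for HC3, nor without replicate 2 (FDR = 0.293) or 3 (FDR = 0.069) for RSM. With only the compared groups fitted, the FDR was 0.0562 for HC3 and 0.0873 for RSM. Scaling by library size only gave 0.092 for RSM. In M[IL-4] both inhibitors lowered *Pdgfa*, from 72.6, 67.2 and 70.8 CPM with vehicle to 52.2, 49.97 and 55.8 with HC3 (log2 -0.42, FDR = 0.00232) and 40.6, 38.3 and 36.8 with RSM (log2 -0.86, FDR = 1.11e-06), with no overlap among the 3 groups. Exons of *Pdgfa* share 26.1% of their bases with *6330403L08Rik* on the opposite strand, and whether counting used the strand is not given in the sources used here. That gene had 16.5 to 32.0 CPM over the 18 libraries, and its 3 Veh M[IL-4] libraries (19.1 to 24.1 CPM) overlapped with those of Veh M[0] (16.5 to 22.3 CPM).

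*Pdgfc*, whose product needs proteolytic activation, was the least abundant PDGF ligand gene of the 3. Veh M[0] libraries held 12.8, 11.3 and 12.5 CPM, all above the 7.97, 6.76 and 5.73 of HC3 M[0] and the 7.04, 9.57 and 8.88 of RSM M[0]. The falls were 0.84 ± 0.20 on the log2 scale with HC3 (FDR = 0.00246) and 0.52 ± 0.20 with RSM (FDR = 0.0439). The fall with RSM was not past the threshold without replicate 1 (FDR = 0.251) or 3 (FDR = 0.109), nor with scaling by library size only (FDR = 0.0772). In M[IL-4] the inhibitor libraries overlapped with vehicle, at a log2 fold change of -0.31 (95% interval -0.75 to 0.13) with HC3 and 0.45 (0.02 to 0.87, FDR = 0.0897) with RSM. With the replicate number as a block within each polarization, the latter had an FDR of 0.0186.

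The balance of PDGF chains can be read within each library as the ratio of CPM per kb of exon. *Pdgfb* over *Pdgfa* was 4.03 to 4.27 in Veh M[0], 1.19 to 1.30 in HC3 M[0] and 0.931 to 1.17 in RSM M[0]. In M[IL-4] the ratio was 1.59 to 1.73 with vehicle, 0.688 to 0.889 with HC3 and 0.447 to 0.566 with RSM. Libraries of HC3 M[0] and RSM M[0] did not overlap, although they lay close together. Per kb of exon, *Pdgfa* was the higher of the pair in all 3 libraries of both HC3 M[IL-4] and RSM M[IL-4]. In HC3 M[IL-4] this depends on the scaling by exon length. By CPM, *Pdgfb* was higher there in replicates 1 (61.8 against 52.2) and 2 (59.3 against 49.97) and lower in replicate 3 (51.2 against 55.8). The exon overlap of *Pdgfa* with *6330403L08Rik* given above applies to this ratio too.

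Of 6 other genes of the PDGF family and its activating proteases, all tested, 1 was called higher with HC3 in M[0] (*Pdgfd*, from 1.13 to 3.73 CPM) and 1 lower with RSM in both polarizations (*Plau*). *Plau*, the urokinase gene, whose product can activate PDGF-D, went from 108.5 CPM in Veh M[0] to 45.6 in RSM M[0] (log2 -1.25, FDR = 4.96e-09) and from 141.7 CPM in Veh M[IL-4] to 37.9 in RSM M[IL-4] (log2 -1.90, FDR = 2.63e-11). With HC3 it also fell without being called, by log2 -0.36 in M[0] (FDR = 0.00415) and -0.96 in M[IL-4] (FDR = 1.49e-07). The counts of this list and of those below stand against 12.0% (HC3) and 11.6% (RSM) of all tested genes called in naïve cells, with 10.3% and 11.0% after IL-4. Transcripts of both receptors were present. *Pdgfrb*, a gene of mesenchymal cells, was at 31.4 CPM in Veh M[0] and 49.7 in HC3 M[0] and was not called in any inhibitor comparison, and *Pdgfra* was at 22.1 and 19.0 CPM in the same groups.

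*Vegfa* and *Vegfb* both rose with both inhibitors. The 250 bases before the RefSeq start of each gene are shown with those of *Flt1*, read 5′ to 3′ on the strand of the gene. *Flt1* was chosen as the only receptor gene of the set that was called lower with an inhibitor. *Nrp2* fell as well without being called, and its window is not shown. Capitals mark GC boxes (GGGCGG on either strand) and, in *Flt1*, a TATA box (TATAAA on either strand), and the sequences are from RefSeq on GRCm38.p6.
*Vegfa*, chr17:46032378-46032627, minus strand: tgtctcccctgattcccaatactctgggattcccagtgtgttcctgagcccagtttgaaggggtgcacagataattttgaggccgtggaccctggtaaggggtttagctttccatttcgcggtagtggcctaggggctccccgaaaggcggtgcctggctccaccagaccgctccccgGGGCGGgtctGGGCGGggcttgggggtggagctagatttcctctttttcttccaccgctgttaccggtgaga
*Vegfb*, chr19:6987652-6987901, minus strand: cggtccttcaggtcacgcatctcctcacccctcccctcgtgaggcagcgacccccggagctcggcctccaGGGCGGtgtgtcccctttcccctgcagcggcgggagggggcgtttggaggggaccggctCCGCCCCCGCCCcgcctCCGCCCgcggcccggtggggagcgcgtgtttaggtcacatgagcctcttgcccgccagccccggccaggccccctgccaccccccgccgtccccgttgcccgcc
*Flt1*, chr5:147726012-147726261, minus strand: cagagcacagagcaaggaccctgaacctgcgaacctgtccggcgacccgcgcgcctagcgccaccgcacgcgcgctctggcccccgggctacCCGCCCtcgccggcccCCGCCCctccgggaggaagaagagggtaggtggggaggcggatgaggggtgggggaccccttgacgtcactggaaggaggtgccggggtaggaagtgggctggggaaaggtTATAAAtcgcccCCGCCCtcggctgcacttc

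The *Vegfa* window holds 2 GC boxes, the *Vegfb* window 4 and the *Flt1* window 3, and the TATA box of *Flt1* lies 31 to 26 bases before the start. A GC box occurs in 32.7% and a TATA box in 12.4% of 32851 promoter windows of the same length. Bases G and C make up 59.2%, 76.4% and 70.4% of the windows of *Vegfa*, *Vegfb* and *Flt1*, against a median of 52.4% over all windows. Further motifs searched on both strands were the ACGTG form of the hypoxia response element core (in 16.6% of all windows) and the composite ATF4 and C/EBP site (TGATGNAAN, in 3.44%). The STAT6 site (TTC and GAA with any 4 bases between, in 5.85%) was searched as well. The letters of these motifs are not in these 3 windows. The GCGTG form of the hypoxia response element core was not part of this search, so its share of all windows is not given. Its letters, or their reverse complement CACGC, can be read in the printed *Vegfb* and *Flt1* windows. They are not in the printed *Vegfa* window. A further *Vegfa* window, at another RefSeq start within an annotated exon and not shown, holds the ACGTG core once, 211 to 207 bases before that start. Of the other 7 genes, *Pdgfa*, *Pdgfc*, *Nrp1*, *Nrp2* and *Igf1* also had a RefSeq window. A match is a description of letters and not of a used site.

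*Vegfa* (chromosome 17, 46016993 to 46032369, minus strand) was at 65.1, 88.2 and 78.8 CPM in Veh M[0], 174, 218 and 214 in HC3 M[0] and 298, 346 and 319 in RSM M[0]. In M[IL-4] it was at 46.7, 45.6 and 45.6 CPM with vehicle, 105, 124 and 116 with HC3 and 178, 191 and 176 with RSM. Within each polarization the 3 groups were separate and ran in the order vehicle, HC3, RSM. The mean was 2.61-fold higher with HC3 (FDR = 1.96e-09) and 4.15-fold higher with RSM (FDR = 1.31e-11) in M[0], and 2.51-fold (FDR = 7.13e-09) and 3.95-fold higher (FDR = 3.39e-11) in M[IL-4]. RSM M[0] held 6.98 times the mean of Veh M[IL-4], the highest and lowest of the 6 groups. Gene counts do not resolve the splice forms of *Vegfa*, which differ in their binding to matrix.

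**Figure D2:**
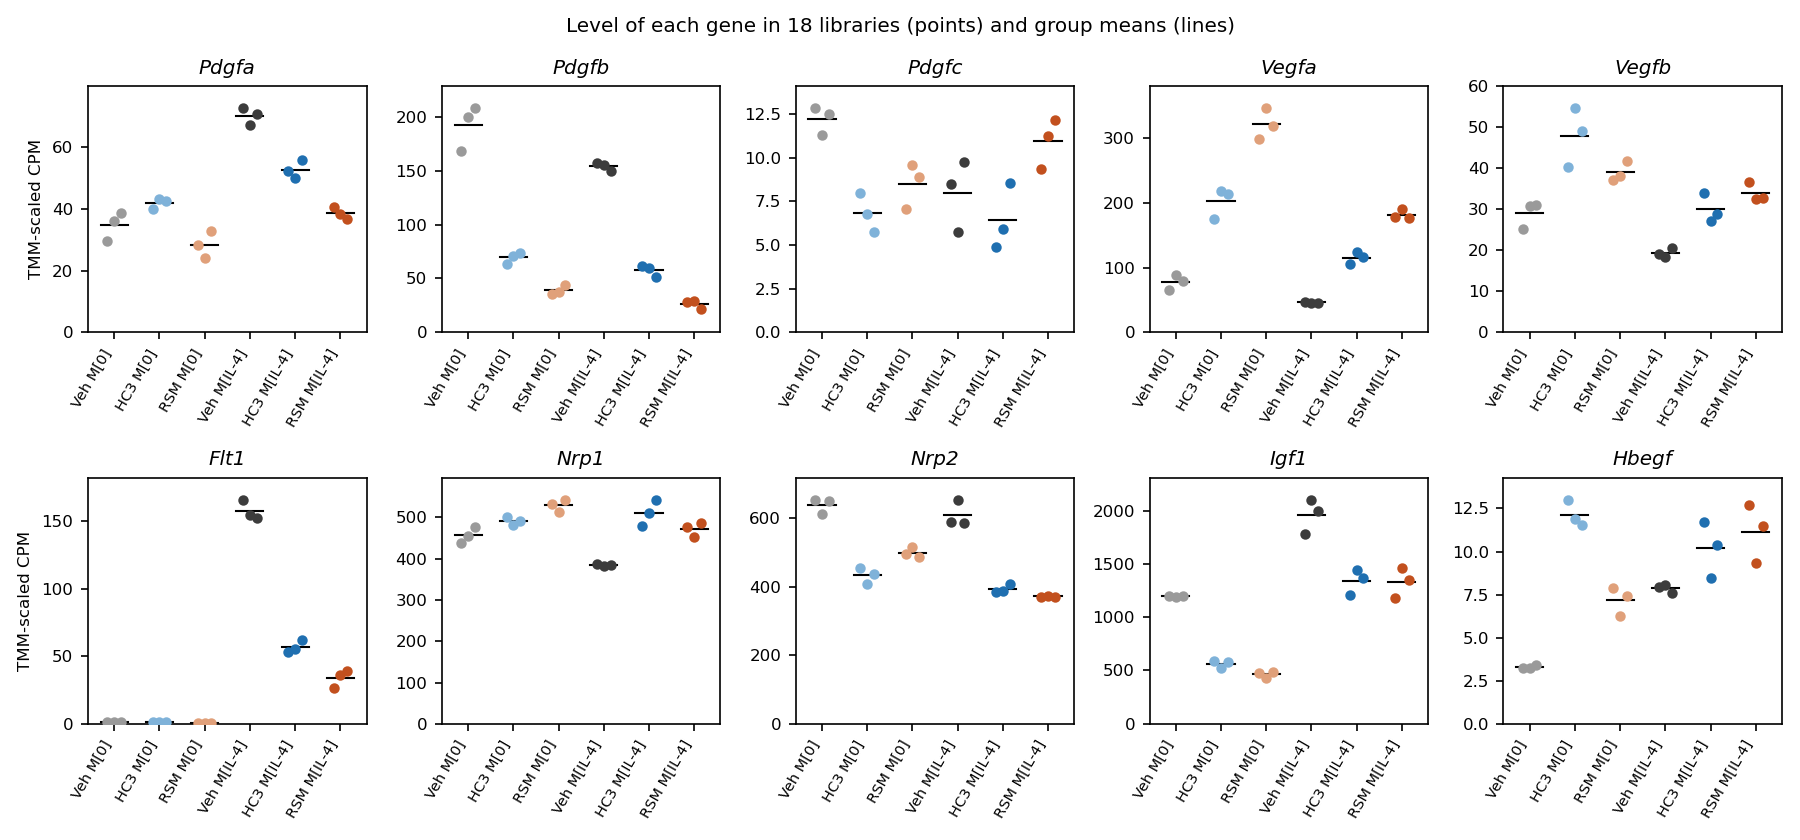
TMM-scaled CPM (y axis, from 0) of each gene in the 3 libraries of each of 6 groups (points) with the group mean (line). Vegfa steps up from vehicle to HC3 to RSM in both polarizations while Pdgfb steps down, and Flt1 is near 0 in M[0] and at 26.1 to 166 CPM in M[IL-4].

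*Vegfb*, whose product binds VEGFR1 and not VEGFR2, was at 25.1, 30.8 and 31.0 CPM in Veh M[0], 40.2, 54.6 and 49.0 in HC3 M[0] and 37.0, 38.1 and 41.8 in RSM M[0]. Vehicle lay below both inhibitors, and the HC3 and RSM libraries overlapped. In M[IL-4], vehicle libraries at 19.2, 18.4 and 20.6 CPM were again below HC3 (33.9, 27.2 and 28.9) and RSM (36.5, 32.5 and 32.8). The rises were 0.73 ± 0.11 on the log2 scale with HC3 (FDR = 3.08e-05) and 0.43 ± 0.11 with RSM (FDR = 0.00463) in M[0], and 0.63 ± 0.12 (FDR = 0.000236) and 0.81 ± 0.12 (FDR = 1.43e-05) in M[IL-4]. The rise with RSM in M[0] had an FDR of 0.0759 without replicate 3. *Vegfa* over *Vegfb*, per kb of exon, was 0.953 to 1.07 in Veh M[0], 1.5 to 1.63 in HC3 M[0] and 2.85 to 3.40 in RSM M[0], and 0.831 to 0.932, 1.17 to 1.70 and 1.82 to 2.20 in M[IL-4].

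The other 5 VEGF family genes were all tested, and those called in the comparisons of an inhibitor with vehicle were higher. They were *Pgf* with HC3 in M[0], *Kdr* with RSM in M[0], *Vegfc* and *Pgf* with HC3 in M[IL-4], and *Kdr*, *Flt4* and *Pgf* with RSM in M[IL-4]. Between M[IL-4] and M[0] with vehicle, *Kdr* (log2 -1.54, FDR = 4.46e-07) and *Flt4* (log2 -1.81, FDR = 0.00776) were called lower. *Vegfc* was called higher there (log2 1.24, FDR = 0.000617). Both calls of *Flt4* rest on few counts. Its group means were 0.542 CPM in Veh M[0], 0.1485 in Veh M[IL-4] and 0.562 in RSM M[IL-4]. The Veh M[IL-4] mean is below the level of 3 counts in 1 library. *Pgf*, the placental growth factor gene, stayed between 0.562 and 1.49 CPM in group means, and *Vegfc*, a lymphatic growth factor gene, went from 6.64 CPM in Veh M[IL-4] to 14.6 in HC3 M[IL-4] (log2 1.14, FDR = 0.000353).

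*Vegfa* is a known target of hypoxia-inducible factors, so 16 hypoxia-inducible genes were followed beside it. The list includes *Hif1a* and *Epas1*, which encode subunits of the factors themselves. Whether hypoxia-inducible factors had a part in the rise of *Vegfa* was not tested. With HC3, 5 were called higher and 1 lower in M[0], and 4 higher and 2 lower in M[IL-4]. With RSM, 7 were called higher and none lower in M[0], and 5 higher and none lower in M[IL-4]. The shares of all tested genes called were 12.0% (HC3) and 11.6% (RSM) in naïve cells, and 10.3% and 11.0% after IL-4. The list medians of the log2 fold change were 0.27, 0.96, 0.30 and 0.55 for HC3 and RSM in M[0], followed by the same in M[IL-4], beside 0.02, 0.01, 0.01 and 0.02 over all tested genes. *Ero1l*, the gene of an ER oxidase, rose from 48.3 CPM in Veh M[0] to 173.4 with HC3 (log2 1.85, FDR = 6.55e-12) and 270.4 with RSM (log2 2.49, FDR = 2.21e-13). In M[IL-4] its log2 values were 1.95 (FDR = 4.62e-12) with HC3 and 2.26 (FDR = 1.07e-12) with RSM. *Slc2a1*, a glucose transporter gene, rose in M[0] from 44.1 to 100.4 CPM with HC3 (log2 1.19, FDR = 1.04e-09) and 131.8 CPM with RSM (log2 1.58, FDR = 2.31e-11). It was not called in M[IL-4], where its log2 values were 0.44 (FDR = 0.000211) with HC3 and 0.62 (FDR = 4.58e-06) with RSM. *Pdk1*, the gene of a kinase that restrains pyruvate dehydrogenase, moved the other way with HC3, from 69.1 to 36.4 CPM in M[0] (log2 -0.92, FDR = 1.04e-08) and from 76.3 to 29.8 CPM in M[IL-4] (log2 -1.35, FDR = 1.08e-10). *Ldha*, the lactate dehydrogenase A gene, rose with RSM in M[0] from 549.7 to 1076 CPM (log2 0.97, FDR = 2.98e-10) and was at 607.1 CPM with HC3 (log2 0.14, FDR = 0.0622). In M[IL-4] its log2 values were -0.17 (FDR = 0.0314) with HC3 and 0.39 (FDR = 3.57e-05) with RSM.

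*Flt1* (chromosome 5, 147561604 to 147726011, minus strand) was expressed at high level only in the M[IL-4] groups. Its M[0] libraries held 18 to 19 counts with vehicle, 20 to 24 with HC3 and 4 to 10 with RSM, which is 1.05, 1.06 and 0.968 CPM, 1.07, 1.02 and 1.26 CPM, and 0.213, 0.314 and 0.513 CPM. RSM libraries were below both other groups, while HC3 and vehicle overlapped. The log2 fold change was -1.54 ± 0.36 (FDR = 0.00216) with RSM and 0.13 ± 0.28 (FDR = 0.749) with HC3, with a 95% interval of -0.47 to 0.72 for the latter. In M[IL-4], *Flt1* was at 166, 154 and 152 CPM with vehicle, 53.1, 55.6 and 61.9 with HC3 and 26.1, 36.4 and 39.3 with RSM, and the 3 groups were separate. The mean was 2.77-fold lower with HC3 (FDR = 4.47e-09) and 4.64-fold lower with RSM (FDR = 2.63e-11). The study also displays *Flt1* among its selected genes, so its fall is not an independent choice. Counts per gene do not tell the membrane form of VEGFR1 from the soluble one.

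*Kdr*, the gene of the other main VEGF-A receptor, rose in all 4 comparisons, including HC3 in M[0], where *Flt1* did not pass the threshold. It was at 20.8, 25.3 and 21.6 CPM in Veh M[0], 39.2, 48.8 and 35.7 in HC3 M[0] and 76.9, 83.8 and 69.3 in RSM M[0]. In M[IL-4] it was at 10.01, 6.62 and 6.495 CPM with vehicle, 11.9, 15.3 and 13.4 with HC3 and 38.9, 44.4 and 39.0 with RSM. Vehicle libraries were the lowest of each polarization. *Kdr* rose by 0.87 ± 0.14 on the log2 scale with HC3 (FDR = 5.26e-05) and 1.77 ± 0.14 with RSM (FDR = 7.66e-09) in M[0], and by 0.81 ± 0.16 (FDR = 0.000585) and 2.40 ± 0.16 (FDR = 6.16e-10) in M[IL-4]. The ratio of *Flt1* to *Kdr* per kb of exon was 11.1 to 15.7 in Veh M[IL-4], 2.43 to 3.10 in HC3 M[IL-4] and 0.449 to 0.674 in RSM M[IL-4]. *Kdr* is also an endothelial marker. The endothelial markers *Cdh5*, *Emcn*, *Tek* and *Tie1* did not pass the count filter. *Vwf*, the other one tested, was called higher with both inhibitors in M[0] and with neither in M[IL-4]. Between M[IL-4] and M[0] with vehicle, *Vwf* was called higher and *Kdr* lower.

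**Figure D3:**
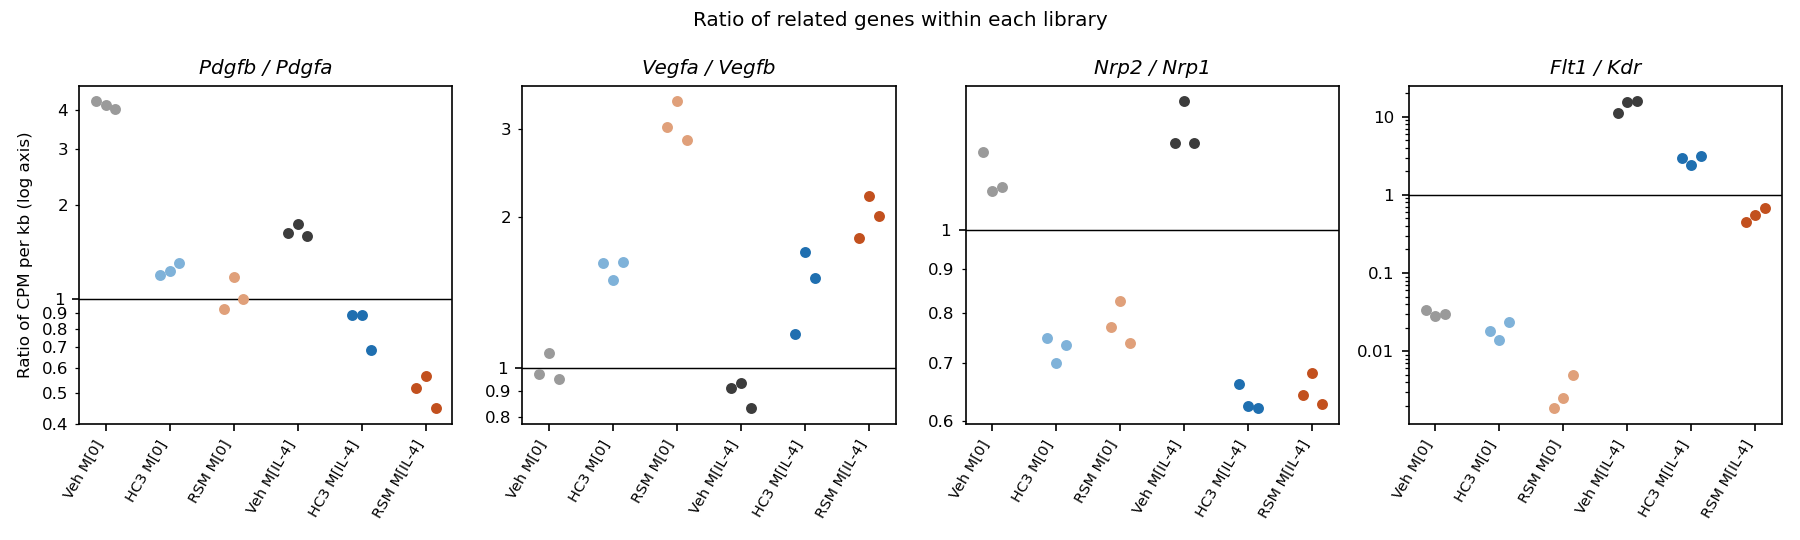
Ratio of CPM per kb of exon (y axis, log scale) of 4 pairs of related genes in each library (points), by group, with a line at 1. Pdgfb over Pdgfa falls from 4.03 to 4.27 in Veh M[0] to 0.447 to 0.566 in RSM M[IL-4], and Flt1 over Kdr is above 1 in the Veh and HC3 M[IL-4] libraries and below 1 in all others.

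The neuropilin genes had the smallest spans of group means of the 10, and with the inhibitors *Nrp2* fell while *Nrp1* lay higher. *Nrp2*, which encodes a co-receptor for VEGF-C and semaphorin 3F, was at 651, 611 and 649 CPM in Veh M[0], 453, 408 and 438 in HC3 M[0] and 495, 514 and 485 in RSM M[0]. In M[IL-4] it was at 589, 652 and 586 CPM with vehicle, 384, 386 and 407 with HC3 and 370, 373 and 371 with RSM. Every inhibitor library was below every vehicle library of its polarization. The falls on the log2 scale were 0.56 ± 0.06 with HC3 (FDR = 2.14e-07) and 0.36 ± 0.06 with RSM (FDR = 5.18e-05) in M[0], and 0.64 ± 0.06 (FDR = 4.98e-08) and 0.72 ± 0.06 (FDR = 9.6e-09) in M[IL-4].

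*Nrp1*, which encodes a co-receptor for VEGF-A and semaphorin 3A, was at 437, 454 and 478 CPM in Veh M[0], 501, 481 and 492 in HC3 M[0] and 532, 514 and 542 in RSM M[0]. Inhibitor libraries lay above vehicle, by 0.11 ± 0.06 on the log2 scale with HC3 (FDR = 0.129, and 0.0427 with the replicate block within polarization) and 0.21 ± 0.06 with RSM (FDR = 0.00448). Without replicate 1 or 3 the RSM value had an FDR of 0.0555 or 0.0526. In M[IL-4], *Nrp1* was at 386, 382 and 386 CPM with vehicle, 479, 511 and 543 with HC3 (log2 0.41, FDR = 8.29e-06) and 476, 452 and 488 with RSM (log2 0.29, FDR = 0.000284). The ratio of *Nrp2* to *Nrp1* per kb was 1.11 to 1.41 in the 6 vehicle libraries and 0.620 to 0.827 in the 12 inhibitor libraries.

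Among 13 neuropilin ligand and co-receptor genes, of which 11 were tested, 3 were called higher with HC3 in M[0] and 2 higher in each of the other 3 inhibitor comparisons, and 1, *Plxna4*, was called lower in those 3. *Sema3c*, a secreted semaphorin gene, rose from 6.98 CPM in Veh M[0] to 19.9 with HC3 and 23.2 with RSM, and from 8.43 CPM in Veh M[IL-4] to 34.8 (log2 2.04, FDR = 3.74e-09) and 49.1 (log2 2.54, FDR = 1.95e-10). *Plxna1*, a semaphorin co-receptor gene, rose from 435.1 CPM in Veh M[0] to 1101 with HC3 (log2 1.34, FDR = 2.38e-09) and 910.6 with RSM (log2 1.06, FDR = 5.68e-08). *Plxnd1*, the receptor gene for semaphorin 3E, fell with HC3 (log2 -0.52 in M[0], FDR = 0.000208, and -0.56 in M[IL-4], FDR = 0.000108), and its values with RSM were -0.09 (FDR = 0.494) and -0.09 (FDR = 0.517).

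*Igf1* (chromosome 10, 87858265 to 87937042, plus strand) was the most abundant of the 10 genes per kb of exon in every group except RSM M[0]. Naïve libraries held 1203, 1185 and 1195 CPM with vehicle, 593, 518 and 579 with HC3 and 474, 428 and 486 with RSM. In M[IL-4] they held 1778, 2100 and 1993 CPM with vehicle, 1209, 1438 and 1371 with HC3 and 1179, 1460 and 1346 with RSM. Vehicle libraries were above both inhibitors in each polarization, and HC3 and RSM libraries overlapped in M[IL-4] but not in M[0]. The mean was 2.12-fold lower with HC3 (FDR = 7.81e-09) and 2.58-fold lower with RSM (FDR = 3.88e-10) in M[0], and 1.46-fold (FDR = 4.67e-05) and 1.47-fold lower (FDR = 3.51e-05) in M[IL-4].

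Of 18 other genes of the insulin-like growth factor axis, 13 were tested. In M[0], 3 were called higher and 1 lower with each inhibitor, and in M[IL-4] 2 higher and 2 lower with HC3 and 3 higher and none lower with RSM. *Igfbp4*, the gene of a binding protein that holds IGF-1 away from its receptor, was at 365 to 417 CPM in Veh M[0], 73.0 to 80.5 in HC3 M[0] and 118 to 141 in RSM M[0] (log2 -2.39, FDR = 2.07e-10, and -1.57, FDR = 4.5e-08). In M[IL-4] it fell from 132.1 CPM to 40.9 with HC3 (log2 -1.69, FDR = 3.62e-08) and 67.9 with RSM (log2 -0.96, FDR = 2.66e-05). *Igf2r*, the gene of the scavenger receptor for IGF-2, fell in all 4 comparisons, by 0.36 to 0.76 on the log2 scale. *Stc2*, the gene of stanniocalcin 2, which restrains the protease that cleaves IGFBP4, rose from 0.374 to 3.31 CPM with RSM in M[0] (log2 3.13, FDR = 2.29e-06) and from 0.540 to 2.78 CPM in M[IL-4] (log2 2.35, FDR = 4.11e-05). The receptor gene *Igf1r* was in the list and was not called in any inhibitor comparison.

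*Hbegf* (chromosome 18, 36504927 to 36515805, minus strand) was a low-level gene that rose most in naïve cells. It was at 3.26, 3.23 and 3.39 CPM in Veh M[0], 13.0, 11.9 and 11.6 in HC3 M[0] and 7.90, 6.28 and 7.39 in RSM M[0], and the 3 groups were separate. In M[IL-4] it was at 7.97, 8.07 and 7.62 CPM with vehicle, 11.7, 8.47 and 10.4 with HC3 and 12.7, 9.31 and 11.5 with RSM, where vehicle lay lowest and the inhibitors overlapped. The mean in M[0] was 3.69-fold higher with HC3 (FDR = 7e-09) and 2.18-fold higher with RSM (FDR = 8.25e-06). In M[IL-4] the log2 fold changes were 0.37 ± 0.14 with HC3 (FDR = 0.0415) and 0.50 ± 0.14 with RSM (FDR = 0.00696). Neither passed the threshold without replicate 1 (FDR = 0.243 and 0.0791) or without replicate 3 (FDR = 0.3 and 0.147). With all replicates kept, the HC3 value had an FDR of 0.0736 with only the compared groups fitted, 0.052 in DESeq2 and 0.119 without the count filter.

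Among 19 other genes of the EGF family with its receptors and sheddases, 13 were tested. Called higher and lower were 3 and 1 with HC3 and 1 and 1 with RSM in M[0], and 2 and 1 with HC3 and 2 and 2 with RSM in M[IL-4]. *Ereg*, the epiregulin gene, was called higher in all 4 comparisons at low levels, from 0.613 CPM in Veh M[0] to 2.33 with HC3 (log2 1.91, FDR = 0.000258) and 2.60 with RSM (log2 2.07, FDR = 0.000112). *Adam17*, the gene of the main sheddase of HB-EGF, fell from 320.7 CPM in Veh M[0] to 182.4 with HC3 (log2 -0.81, FDR = 1.44e-07) and 240.2 with RSM (log2 -0.42, FDR = 0.000347). *Cd9*, whose tetraspanin product associates with the HB-EGF precursor, fell from 652.6 CPM in Veh M[IL-4] to 321.3 with RSM (log2 -1.02, FDR = 5.18e-06). It also fell without being called with HC3 in M[IL-4] (log2 -0.62, FDR = 0.00104). In M[0] the values were -0.43 with HC3 (FDR = 0.014) and -0.81 with RSM (FDR = 7.8e-05).

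A further 18 angiogenic and repair factors known from macrophages included 16 tested genes. Called higher and lower were 3 and 2 with HC3 and 1 and 1 with RSM in M[0], and 3 and 1 with HC3 and 1 and 1 with RSM in M[IL-4]. *Thbs1*, the gene of thrombospondin 1, an inhibitor of vessel growth, was called higher in all 4, from 735 CPM in Veh M[0] to 1993 with HC3 (log2 1.44, FDR = 2.23e-05) and 3328 with RSM (log2 2.18, FDR = 1.88e-07). *Hgf*, the hepatocyte growth factor gene, fell from 36.2 CPM in Veh M[0] to 17.8 with HC3 (log2 -1.03, FDR = 5.76e-06) and 15.2 with RSM (log2 -1.25, FDR = 5.96e-07). In M[IL-4] it was not called, with log2 values of -0.66 (FDR = 0.000712) and -0.65 (FDR = 0.000767). *Gas6*, the gene of a ligand of TAM receptors, fell from 565.6 CPM in Veh M[0] to 222.5 with HC3 (log2 -1.35, FDR = 5.81e-10) and 329.5 with RSM (log2 -0.78, FDR = 8.25e-07). In M[IL-4] its log2 values were -1.03 with HC3 (FDR = 3.51e-08) and -0.21 with RSM (FDR = 0.0708).

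IL-4 itself changed 9 of these 10 genes in vehicle-treated cells at an FDR under 0.05 (background 31.0%), and the largest fold change among them was that of *Flt1*. With vehicle, 3 of 10 genes were called higher in M[IL-4] than in M[0] (*Flt1*, *Hbegf* and *Pdgfa*) and none lower, against 6.66% of all tested genes called in either direction and 2.83% called higher. With HC3 and with RSM, 2 of 10 were called, *Flt1* and *Igf1*, both higher, against backgrounds of 3.97% and 4.26% in either direction and 1.82% and 2.45% called higher. The mean of *Flt1* was 154-fold higher with vehicle (log2 7.26 ± 0.17, FDR = 9.7e-16), 50.8-fold with HC3 (log2 5.66 ± 0.17, FDR = 3.77e-14) and 97.8-fold with RSM (log2 6.58 ± 0.21, FDR = 6.49e-14), and the naïve libraries held 4 to 24 counts. By fold change it stood at place 15 of 424 genes called higher with vehicle. *Pdgfa* rose 2.02-fold with vehicle (log2 1.02 ± 0.10, FDR = 2.92e-07) and was just past the fold limit: its log2 value was 0.87 without replicate 1 and 0.96 with scaling by library size only. *Hbegf* rose 2.39-fold (FDR = 3.89e-06).

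*Igf1* rose with IL-4 in each setting, 1.64-fold with vehicle (FDR = 3.62e-06), 2.38-fold with HC3 (FDR = 6.68e-09) and 2.87-fold with RSM (FDR = 2.8e-10). *Vegfa* fell by 0.75 ± 0.10, 0.81 ± 0.10 and 0.82 ± 0.10 on the log2 scale in the same order (highest FDR 1.59e-05), so the polarized libraries were below the naïve ones at each treatment. *Vegfb* fell with vehicle (log2 -0.58, FDR = 0.000776) and HC3 (log2 -0.68, FDR = 0.00026), and its value with RSM was -0.20 (FDR = 0.274). *Pdgfb* had log2 values of -0.32 (FDR = 0.0231), -0.28 (FDR = 0.0912) and -0.56 (FDR = 0.00138). The vehicle value had an FDR of 0.101 without replicate 2 and 0.119 without replicate 3, and the RSM value 0.0691 without replicate 3. *Pdgfc* fell with vehicle (log2 -0.61, FDR = 0.0279, but 0.0752 without replicate 1 and 0.119 without replicate 2). *Nrp1* fell with vehicle (log2 -0.25, FDR = 0.00202, but 0.086 without replicate 3), and *Nrp2* fell with RSM (log2 -0.43, FDR = 2.11e-05), with values of -0.07 (FDR = 0.42) with vehicle and -0.14 (FDR = 0.107) with HC3.

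**Figure D4:**
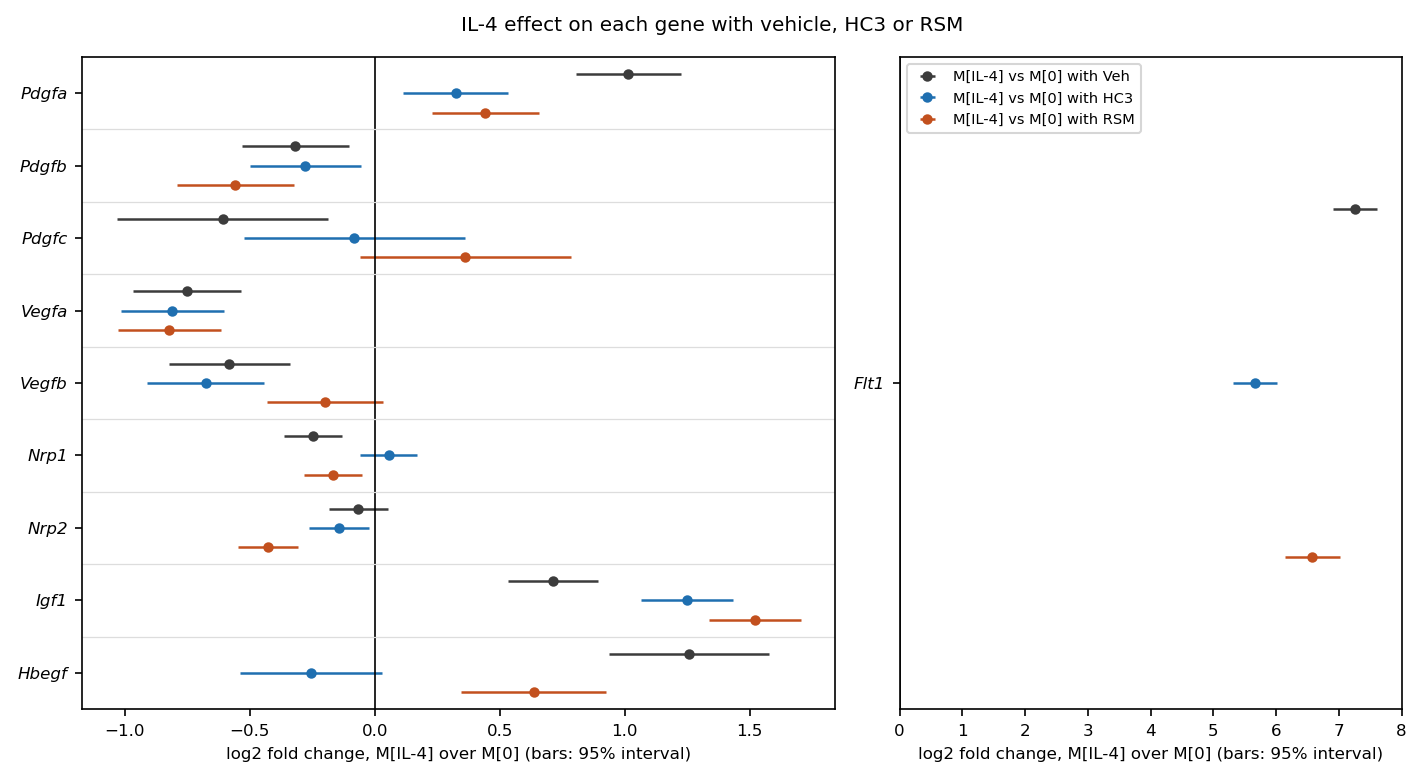
Log2 fold change of M[IL-4] over M[0] (x axis) with its 95% interval (bars) for each gene in cells given vehicle, HC3 or RSM, with Flt1 in a panel of its own from 0 to 8. Flt1 stands at 7.26, 5.66 and 6.58, Igf1 has its highest value with RSM (1.52), and Hbegf is at 1.26 with vehicle and -0.25 with HC3.

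Whether an inhibitor effect differed between M[0] and M[IL-4] was tested with an interaction term, in which a negative value means a lower log2 fold change in M[IL-4]. For HC3, 2 of 10 genes were called, *Flt1* (-1.60 ± 0.30, FDR = 0.00311) and *Hbegf* (-1.51 ± 0.20, FDR = 0.000181), against 1.24% of all tested genes. Without replicate 3 neither was past the threshold (FDR = 0.0698 and 0.0502). At an FDR under 0.05 alone there were 5 of 10, against a background of 6.48%. For RSM 0 of 10 were called in edgeR's test and 0 in DESeq2, against 2.14% of all tested genes in edgeR, while 4 of 10 had an FDR under 0.05 (background 9.19%) and 6 an unadjusted p under 0.05 (background 21.6%). *Igf1* had an interaction of 0.54 ± 0.12 for HC3 (FDR = 0.0111, but 0.269 without replicate 3) and 0.81 ± 0.12 for RSM (FDR = 0.00024), which is a smaller fall in M[IL-4] in both cases. For *Vegfa* and *Pdgfb* no difference between polarizations passed the threshold. Their interactions were -0.06 (95% interval -0.36 to 0.24) and 0.04 (-0.27 to 0.35) for HC3, and -0.07 (-0.37 to 0.22) and -0.24 (-0.56 to 0.08) for RSM. With the replicate block within polarization, the RSM values of *Pdgfb*, *Vegfb* and *Hbegf* had an FDR of 0.0422, 0.0167 and 0.0184, against 0.407, 0.164 and 0.0686 without it.

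HC3 and RSM were given at different concentrations, so their comparison is one of these treatments as used. In M[0], 1 of 10 genes was called, against 3.04% of all tested genes, namely *Flt1*, which was 3.23-fold higher with HC3 (log2 1.66 ± 0.35, FDR = 0.0031, but 0.0516 without replicate 2). This rests on few counts, 20 to 24 per library with HC3 and 4 to 10 with RSM. In M[IL-4], 1 of 10 was called, against 2.80%, namely *Pdgfb*, which was 2.18-fold higher with HC3 (log2 1.12 ± 0.11, FDR = 9.77e-07). *Vegfa* was lower with HC3 than with RSM by 0.67 ± 0.10 in M[0] (FDR = 9.68e-05) and 0.66 ± 0.10 in M[IL-4] (FDR = 0.000135) on the log2 scale, with libraries that did not overlap. *Flt1* in M[IL-4] was 1.68-fold higher with HC3 (FDR = 0.000136). *Hbegf* was 1.69-fold higher with HC3 in M[0] (FDR = 0.000832, and 0.0549 without replicate 3), and in M[IL-4] its log2 difference was -0.13 with a 95% interval of -0.42 to 0.15. *Igf1* in M[IL-4] differed by 0.01 (-0.17 to 0.19). *Vegfb* in M[0] had a log2 difference of 0.30 (FDR = 0.0829, and 0.00355 with the replicate block within polarization).

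**Figure D5:**
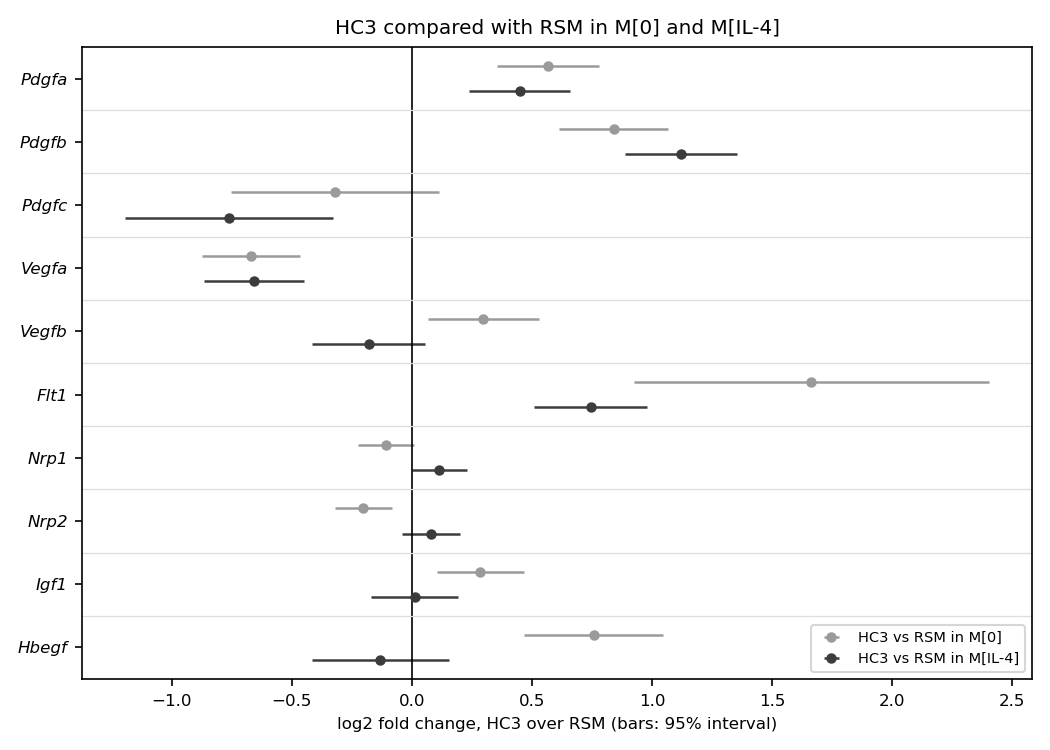
Log2 fold change of HC3 over RSM (x axis) with its 95% interval (bars) for each gene in naïve and polarized cells. Pdgfb lies right of 0 (0.84 and 1.12) and Vegfa left of 0 (-0.67 and -0.66) in both polarizations, and the intervals of Nrp1 include 0.

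Levels of different genes were compared per kb of exon. In Veh M[0] the order was *Igf1* (120.6 CPM per kb), *Nrp2* (53.8), *Nrp1* (46.7), *Pdgfb* (46.2), *Vegfa* (18.1), *Vegfb* (18.05), *Pdgfa* (11.1), *Pdgfc* (2.40), *Hbegf* (0.681) and *Flt1* (0.0759). *Nrp1* and *Pdgfb* overlapped there, as did *Vegfa* and *Vegfb*. In RSM M[0], *Vegfa* came first at 74.9 CPM per kb, above *Nrp1* (54.1) and *Igf1* (46.7), and *Pdgfb* at 9.33 overlapped with *Pdgfa* at 9.10. In Veh M[IL-4], *Igf1* came first at 197.6 CPM per kb, and *Flt1* (11.7) overlapped with *Vegfb* (12.1) and lay above *Vegfa* (10.7). The highest group mean was 454 times the lowest for *Flt1*, 7.29 times for *Pdgfb*, 6.98 for *Vegfa*, 4.23 for *Igf1*, 3.69 for *Hbegf*, 2.48 for both *Pdgfa* and *Vegfb*, 1.90 for *Pdgfc*, 1.72 for *Nrp2* and 1.38 for *Nrp1*.

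Some genes outside the set had nearly the same course. Over the 18 libraries, which share their depth, treatment and polarization, Pearson's r of log2 CPM was computed with 10974 genes of at least 50 counts on average, as a description. The gene most like *Vegfa* was *Cav1* (r = 0.993), followed by *Mapk7* (0.978) and *Grina* (0.977). For *Pdgfb* these were *Ckb* (0.988), *Mical1* (0.982) and *Zfyve28* (0.981), and for *Flt1* they were *Rnase2a* (0.985), *Dhrs9* (0.977) and *P2ry1* (0.975). *Igf1* was closest to *Lpxn* (0.984), *Tmem106a* (0.981) and *Lpcat1* (0.979), and *Pdgfa* to *Rhoc* (0.973), *Actr1b* (0.965) and *Eif4a3* (0.933). For *Vegfb* the genes were *Gaa* (0.958), *Ninj1* (0.951) and *Rabggta* (0.946), for *Hbegf* *Txndc5* (0.953), *Utp18* (0.938) and *Nop56* (0.937), and for *Nrp2* *Zranb3* (0.953), *Dock8* (0.952) and *Tmem50b* (0.951). The lowest values were those of *Nrp1* with *Fndc3b* (0.913), *Mycbp2* (0.912) and *Ankrd11* (0.898), and of *Pdgfc* with *Pde7a* (0.875), *Man2a1* (0.842) and *Oas2* (0.833).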

How the data were processed

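Poly-T selected RNA of 18 BMDM libraries (6 groups, 3 each) was sequenced. The deposited table holds counts per Ensembl gene, which the authors left unnormalized. Per the labels and methods, the authors trimmed adapters (fastp), aligned to GRCm38 (STAR, local mode, mapping quality 40), marked but kept duplicates (Picard) and counted exonic reads (featureCounts). Their versions, the annotation release and the strand setting are not given in the sources used here.

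Symbols, positions and exon lengths came from GENCODE on GRCm38 and matched 55144 of 55385 genes. Groups came from the sample labels. A single model of the 18 libraries, with 1 term per group and no block, was fitted with edgeR 4.0.16 (R 4.3.3, TMM, quasi-likelihood test) for 11 comparisons. Filter, test and limits were those of the study's methods. Correlations used log2 CPM with a prior count of 2, and intervals are 95%. Scripts were tested on simulated data. Plots used matplotlib 3.10.9 (Python 3.11.15).

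The 10 genes, 7 pathway lists and marker lists were chosen with earlier results of these data known. Named genes are the 10 members, the 3 most similar genes of each, and up to 4 genes of each list with the lowest FDR over the inhibitor comparisons and IL-4 with vehicle. Other list members, markers and *6330403L08Rik* were picked with their values in view. *Pdgfb* and *Hbegf* are named without a promoter sequence.

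Replicate numbers pair libraries within a polarization: residuals of same-numbered libraries correlated at 0.11 to 0.372 there, with 18 of 18 pairs over 0.1, against 12 of 27 across polarizations. No library was a copy of another, since replicates differed beyond counting noise (chi-square per gene 5.79 to 18.2). P-values measure the spread between these libraries. Alternatives were a replicate block (over all libraries or within polarization), the compared groups only, DESeq2 1.42.0, no count filter, filterByExpr, library size scaling, and leaving out each replicate number.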

Additional observations from a re-analysis of the deposited data

Results flagged for a closer look

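In all, 9 effects differed between M[0] and M[IL-4] by the interaction term of edgeR's quasi-likelihood fit (FDR under 0.05), 5 of 10 genes for HC3, against 6.48% of all tested genes, and 4 of 10 for RSM, against 9.19%. Groups of 3 libraries are too small to test single libraries for standing apart.

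For HC3, *Flt1* had an interaction of -1.60 on the log2 scale (FDR = 0.00311), with inhibitor effects of 0.13 (M[0]) and -1.47 (M[IL-4], as for the pairs that follow). *Hbegf* had -1.51 (FDR = 0.000181), with effects of 1.88 and 0.37, and *Pdgfa* had -0.69 (FDR = 0.00553), with effects of opposite sign, 0.28 and -0.42. *Igf1* had 0.54 (FDR = 0.0111), with effects of -1.08 and -0.55, and *Nrp1* had 0.30 (FDR = 0.0253), with effects of 0.11 and 0.41. Without replicate 3 all 5 were short of the threshold (FDR = 0.0698, 0.0502, 0.0633, 0.269 and 0.48 in that order). *Pdgfa* also was without replicate 1 (FDR = 0.0952), and *Nrp1* without replicate 2 (FDR = 0.126) or without the count filter (FDR = 0.0651).

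For RSM, *Igf1* had 0.81 (FDR = 0.00024), with falls of 1.37 and 0.56, and it stayed past the threshold in all 10 alternatives. *Pdgfc* had 0.97 (FDR = 0.0379), with effects of -0.52 and 0.45, *Pdgfa* had -0.57 (FDR = 0.0148), with -0.29 and -0.86, and *Nrp2* had -0.36 (FDR = 0.00692), with -0.36 and -0.72. *Pdgfc* was short of the threshold without any one replicate number (FDR 0.107 to 0.149), *Pdgfa* without replicate 1 (0.148) or 3 (0.194), and *Nrp2* without replicate 2 (0.104) or 3 (0.139).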

How the results depend on the processing

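Of 107 recomputed counts of called members, 105 stayed within 1.5 times their value. Leaving out 1 replicate number at a time gave 0 to 2 called members for the HC3 by IL-4 interaction (0 without replicate 3) and 0 to 1 for HC3 against RSM in M[0] (0 without replicate 2). Of 1070 recomputed log2 fold changes, 987 kept direction and side of the FDR threshold, 62 fell short of it, 15 passed it newly and 6 turned in sign. None of 768 that were past the threshold in the fit of all libraries turned in sign. Those 6 did so on leaving out 1 replicate number and ran from -0.011 to 0.193 for *Flt1* with HC3 in M[0], from -0.448 to 0.214 for *Pdgfc* with IL-4 under HC3, from -0.15 to 0.047 and from -0.163 to 0.027 for the interactions of *Vegfa* with HC3 and RSM, from -0.195 to 0.007 for the HC3 interaction of *Vegfb*, and from -0.001 to 0.043 for *Igf1* between the inhibitors in M[IL-4]. Leaving out a replicate number accounted for 51 of the 62, with 25 of them without replicate 3; fewer libraries enter those fits. With a replicate block within polarization 6 of 80 passed newly (the FDR of *Vegfb* between HC3 and RSM in M[0] was 0.00355) and none fell short, and the block changed no count of called members. Scaling by library size only shifted the median of all genes by at most 0.06. Depth limits *Flt1* in M[0], where the libraries held 4 to 24 counts.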
